A study of Homo sapiens with 9 samples.

Results

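The genes described here are the E2F transcription factors E2F1 to E2F8 and 2 of the pocket proteins that bind them, RB1 and RBL1. They were taken as the rows of the count table whose Ensembl identifiers carry those symbols in GENCODE release 29. That rule uses no measured value, but the family was chosen with earlier results of these data known. All 10 have a row among the 60675 rows of the table, 9 had counts and were among the 13264 genes tested, and E2F8 had 0 counts in every library. The cells are HCC827, an established human lung adenocarcinoma line. They stably expressed hairpin G1 or hairpin G7, both of which target CBX5 (the gene of the heterochromatin protein HP1 alpha), or a non-silencing control hairpin (NS). Each of the 3 groups had 3 libraries of polyadenylated RNA. The labels name no drug, and all 3 groups carried a hairpin, so no cells without one were compared. The study's title connects CBX5 loss with resistance to EGFR inhibitors.

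E2F proteins bind promoters of genes for S phase entry and DNA replication, in most cases as dimers with a DP protein. E2F1, E2F2 and E2F3 are classed as activators, E2F4 and E2F5 as repressors that act with pocket proteins, E2F6 as a repressor that binds no pocket protein, and E2F7 and E2F8 as atypical repressors that bind DNA without DP. RB1 and RBL1 (the protein p107) hold E2F proteins in check until cyclin-dependent kinases phosphorylate them, and several genes of the family, E2F1 and RBL1 among them, are themselves known E2F targets.

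Because of that feedback, promoters of 5 members are shown before their RNA levels. The windows come from RefSeq on GRCh38.p14, run 5′ to 3′ on the gene's strand and cover 250 bases before to 50 bases after the annotated start. They were searched on both strands for the 4 spellings TTTCGCGC, TTTGGCGC, TTTCCCGC and TTTGCCGC of the E2F motif, and capitals mark the matches. E2F1 (chr20:33686336-33686635, minus strand), E2F2 (chr1:23531184-23531483, minus strand) and RBL1 (chr20:37095948-37096247, minus strand) are shown because each holds a match. E2F7 (chr12:77065520-77065819, minus strand) and E2F6 (chr2:11466112-11466411, minus strand) are shown because neither does, and their RNA behaved differently from each other.

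E2F1: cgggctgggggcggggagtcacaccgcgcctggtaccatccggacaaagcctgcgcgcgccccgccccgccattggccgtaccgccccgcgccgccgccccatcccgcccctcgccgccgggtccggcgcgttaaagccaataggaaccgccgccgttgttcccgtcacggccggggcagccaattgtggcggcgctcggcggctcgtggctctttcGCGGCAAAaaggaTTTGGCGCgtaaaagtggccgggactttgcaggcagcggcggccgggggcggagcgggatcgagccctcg
E2F2: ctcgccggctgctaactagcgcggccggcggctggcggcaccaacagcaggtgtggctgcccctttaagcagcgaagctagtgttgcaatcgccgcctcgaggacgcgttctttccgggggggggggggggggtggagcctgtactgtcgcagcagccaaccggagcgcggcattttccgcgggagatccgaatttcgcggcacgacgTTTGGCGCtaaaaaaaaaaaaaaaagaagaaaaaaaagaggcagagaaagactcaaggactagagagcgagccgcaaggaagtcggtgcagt
RBL1: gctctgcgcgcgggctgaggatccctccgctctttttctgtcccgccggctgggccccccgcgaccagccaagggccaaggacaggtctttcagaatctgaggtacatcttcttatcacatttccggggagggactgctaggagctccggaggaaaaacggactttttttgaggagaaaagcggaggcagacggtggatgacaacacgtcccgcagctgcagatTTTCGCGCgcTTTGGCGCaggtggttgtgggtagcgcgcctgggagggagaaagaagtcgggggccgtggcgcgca
E2F7: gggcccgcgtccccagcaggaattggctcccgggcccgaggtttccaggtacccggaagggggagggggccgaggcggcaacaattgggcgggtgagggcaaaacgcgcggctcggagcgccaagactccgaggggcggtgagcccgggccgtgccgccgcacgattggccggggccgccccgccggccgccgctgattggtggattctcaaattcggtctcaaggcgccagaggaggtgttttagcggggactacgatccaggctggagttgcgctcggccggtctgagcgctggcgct
E2F6: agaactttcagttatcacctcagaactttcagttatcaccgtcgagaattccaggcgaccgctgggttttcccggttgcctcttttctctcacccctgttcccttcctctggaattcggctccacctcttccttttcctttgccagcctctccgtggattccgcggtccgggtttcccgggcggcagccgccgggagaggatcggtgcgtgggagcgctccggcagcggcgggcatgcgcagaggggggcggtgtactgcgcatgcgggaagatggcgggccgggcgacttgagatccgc

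Matches of E2F1 lay 33 bases before the start on the opposite strand (TTTGCCGC) and 20 bases before it on the gene's own strand (TTTGGCGC). E2F2 had TTTGGCGC 42 bases before its start. RBL1 had a pair side by side, TTTCGCGC and TTTGGCGC, which began 26 and 16 bases before its start. E2F3 had TTTCCCGC on the opposite strand 53 bases before the first of its 2 annotated starts, and E2F4 had none. Any of the 4 spellings occurred in 3.31% of 35116 RefSeq windows of this length, and TTTGGCGC alone in 0.652%. Those shares are per window over all genes. Counted per gene, 624 of 9652 tested genes with a window held any of the 4, a larger share. A match is a string of letters and was not tested as a binding site.

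Library totals were 12701561 to 22372353 counts, so the 3 counts that a 0 allows correspond to 0.139 to 0.227 CPM (counts relative to library size, scaled by TMM). Intervals and floors of this kind cover counting error only. CBX5 had 142 ± 0.595 CPM with G1, 203 ± 1.54 CPM with G7 and 369 ± 8.11 CPM with NS (SD, n = 3 each), so both hairpins went with less of the targeted RNA. G7 replicate 3 stood apart from the other 2 G7 libraries, since its counts differed from theirs by a chi-square of 24.7 and 19.5 for each degree of freedom, and theirs from each other by 1.51. It also had the highest share of mitochondrially encoded counts, 19.8% where the lowest library had 13.4%. The series text calls the replicates biological, but whether each is a transduction of its own is not stated, so p-values measure the spread between these libraries, which may be technical.

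Epithelial markers were abundant in every library, with a summed level over 6 of 8 markers of 13746 to 13939 CPM with G1, 11441 to 12116 CPM with G7 and 9629 to 10603 CPM with NS. The lung lineage markers NKX2-1 and NAPSA had no counts, and both lie inside the span of another gene. Fibroblast markers (5 of 7 with counts, COL1A1 in the main) summed to 13.3 to 15.9, 13.2 to 14.7 and 14.7 to 14.8 CPM with G1, G7 and NS. Immune markers (5 of 6, CD14 in the main) summed to 3.27 to 4.45, 6.34 to 7.57 and 6.73 to 8.21 CPM in the same order. Endothelial markers (4 of 4, PECAM1 in the main) summed to 71.2 to 76.9, 85.8 to 92.5 and 84.2 to 92.8 CPM. Among endothelial markers, PECAM1 had means of 55.7, 73.4 and 73.4 CPM and CDH5 17.6, 14.8 and 14.0 CPM with G1, G7 and NS. VWF and KDR stayed at or below means of 0.498 and 0.0198 CPM, and the immune marker PTPRC at or below 0.542 CPM. The immune marker CD68 and the fibroblast marker THY1 had no counts, and all their exon bases lie within spans of other genes.

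In cells with hairpin G1, RNA of the activators E2F1, E2F2 and E2F3, of the repressors E2F4 and E2F7, and of both pocket proteins was higher than in NS cells. In cells with G7, E2F1, E2F2, E2F4 and RBL1 were higher. E2F6 did not pass the test with either hairpin, and E2F5 was lower with G1 than with G7. The measurement is of bulk RNA, in which more cells in a given cycle phase and more RNA per cell cannot be told apart.

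**Figure D1:**
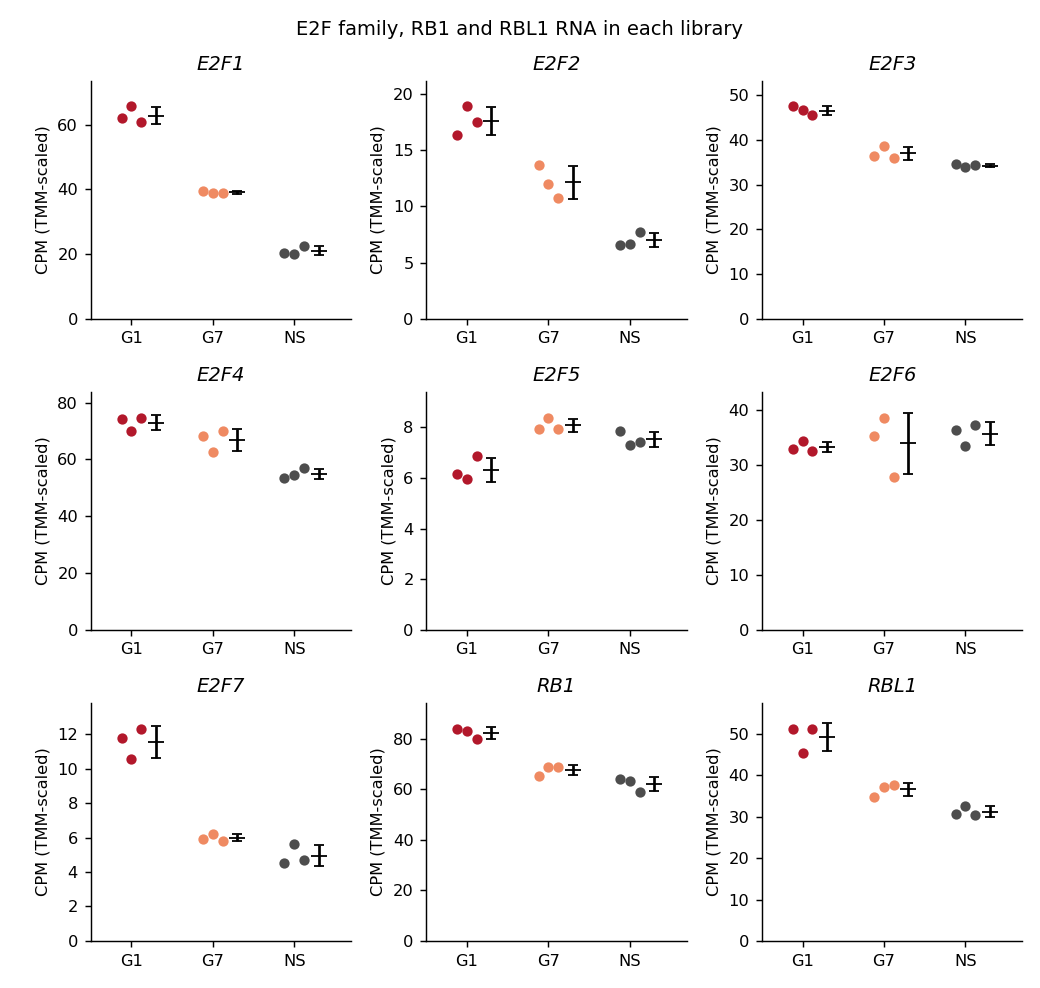
Level of each of the 9 tested members in CPM (y axes, linear, from 0) in every library of G1, G7 and NS (points; crossbars are the mean and SD of 3 libraries). E2F1 and E2F2 are highest with G1, then G7, then NS, with no overlap, while the E2F6 groups overlap.

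E2F1, the activator most closely tied to S phase entry, had 62.1, 65.7 and 60.7 CPM in the 3 G1 libraries, 39.5, 38.9 and 38.9 CPM in the G7 libraries and 20.2, 20.1 and 22.6 CPM in the NS libraries. All G1 libraries lay above all G7 libraries, and all G7 libraries above all NS libraries. The log2 change against NS was 1.58 ± 0.062 with G1 (SE, adjusted p = 3.06e-13) and 0.89 ± 0.064 with G7 (adjusted p = 2.21e-08). The test is the quasi-likelihood test of edgeR, Benjamini-Hochberg adjusted over all tested genes, and gives every adjusted p below unless DESeq2 is named. These 2 comparisons use the same NS libraries. E2F1 (ENSG00000101412) spans chr20:33675683-33686404 in GRCh38 on the GENCODE 29 annotation, from which the positions of the other members are also taken.

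E2F2 (ENSG00000007968, chr1:23506430-23531220), an activator known for roles in blood cell and other progenitor proliferation, was expressed at a lower level. It had 16.4, 18.9 and 17.5 CPM with G1, 13.7, 12.04 and 10.7 CPM with G7 and 6.57, 6.66 and 7.74 CPM with NS. Again the 3 groups did not overlap. E2F2 rose by a log2 change of 1.33 ± 0.110 with G1 (edgeR adjusted p = 7.87e-09) and 0.79 ± 0.114 with G7 (adjusted p = 7.45e-05).

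E2F3 (ENSG00000112242, chr6:20401906-20493715), whose locus gives rise to a long and a short isoform that gene counts do not separate, had 47.5, 46.7 and 45.5 CPM with G1, 36.5, 38.7 and 35.9 CPM with G7 and 34.5, 34.0 and 34.3 CPM with NS. The G1 libraries stood above all others, and the G7 libraries lay narrowly above NS. The log2 change was 0.44 ± 0.055 with G1 (edgeR adjusted p = 1.62e-06). With G7 it was 0.11 ± 0.056 and did not pass the test (edgeR adjusted p = 0.177).

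E2F4 (ENSG00000205250, chr16:67192169-67198918), the main E2F of resting cells, had 74.3, 69.8 and 74.7 CPM with G1, 68.3, 62.6 and 69.9 CPM with G7 and 53.5, 54.5 and 56.9 CPM with NS. Both hairpin groups lay above NS, and they overlapped each other. E2F4 rose by a log2 change of 0.41 ± 0.054 with G1 (edgeR adjusted p = 3.71e-06) and 0.29 ± 0.054 with G7 (adjusted p = 9.13e-04). Between G1 and G7 the log2 difference was 0.12 ± 0.052 (edgeR adjusted p = 0.0673). That difference passed the test with the replicate number as a block (0.12, adjusted p = 0.0388), and when G1 replicate 2 (0.15, edgeR adjusted p = 0.0473) or G7 replicate 3 (0.15, edgeR adjusted p = 0.0273) was left out.

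E2F5 (ENSG00000133740, chr8:85177225-85217158), the other repressor that acts with pocket proteins, was among the lowest members. It had 6.16, 5.95 and 6.87 CPM with G1, 7.92, 8.38 and 7.92 CPM with G7 and 7.86, 7.28 and 7.44 CPM with NS. The G1 libraries lay below all others, with a log2 difference from NS of -0.25 ± 0.108 that did not pass the test (edgeR adjusted p = 0.0529). It did pass without G1 replicate 3 (-0.31, adjusted p = 0.0412). The log2 difference from NS with G7 was 0.10 ± 0.102 (edgeR adjusted p = 0.529). Of the exon bases of E2F5, 43.3% lie within the spans of other genes, so its counts depend on how overlapping reads were assigned.

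E2F6 (ENSG00000169016, chr2:11444375-11466177), which represses through a Polycomb complex and binds no pocket protein, had 33.0, 34.5 and 32.7 CPM with G1, 35.3, 38.7 and 27.9 CPM with G7 and 36.3, 33.4 and 37.4 CPM with NS. The groups overlapped, and G7 replicate 3 was the lowest of the 9 libraries. The log2 difference from NS was -0.10 ± 0.090 with G1 and -0.08 ± 0.089 with G7 (edgeR adjusted p = 0.357 and 0.556). Without G7 replicate 3 the G7 difference was 0.05 (adjusted p = 0.679).

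E2F7 (ENSG00000165891, chr12:77021247-77065580), an atypical repressor known to act on E2F1 itself, had 11.8, 10.5 and 12.3 CPM with G1, 5.93, 6.21 and 5.82 CPM with G7 and 4.53, 5.63 and 4.70 CPM with NS. The G1 libraries stood far above the other 6, and the G7 libraries lay just above NS. E2F7 rose by a log2 change of 1.22 ± 0.114 with G1 (edgeR adjusted p = 4.30e-08), while the difference with G7 was 0.27 ± 0.125 (adjusted p = 0.133). Its promoter window above holds none of the E2F spellings, whereas the CCAAT letters, which 34.6% of all windows hold, occur there 4 times on the opposite strand.

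E2F8 (ENSG00000129173, chr11:19224063-19241620), the closest relative of E2F7, was listed at 0 in all 9 libraries. All 4140 of its exon bases lie inside the span of AC009652.2 (chr11:19196775-19281426), annotated on the opposite strand, which had 8 counts over the 9 libraries together. Among protein coding genes inside the span of another gene, 1434 of 1534 (93.5%) were at 0 in every library, against 2890 of 18159 (15.9%) of the rest. The zero of E2F8 is not read as absence of its RNA here. The MuvB subunit LIN37 and the kinase gene CDK2 were at 0 in the same position.

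RB1 (ENSG00000139687, chr13:48303726-48599436), the retinoblastoma protein that binds the activator E2Fs, had 83.9, 83.1 and 79.8 CPM with G1, 65.3, 68.8 and 68.7 CPM with G7 and 64.0, 63.2 and 58.9 CPM with NS. The G1 libraries lay above all others. RB1 rose by a log2 change of 0.41 ± 0.050 with G1 (edgeR adjusted p = 1.15e-06), and the difference with G7 was 0.13 ± 0.050 (adjusted p = 0.0788).

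RBL1 (ENSG00000080839, chr20:36996349-37095995), which binds mainly E2F4 and E2F5, had 51.2, 45.4 and 51.3 CPM with G1, 34.8, 37.3 and 37.7 CPM with G7 and 30.7, 32.7 and 30.4 CPM with NS, with no overlap between groups. It rose by a log2 change of 0.66 ± 0.064 with G1 (edgeR adjusted p = 7.47e-08) and 0.23 ± 0.065 with G7 (adjusted p = 0.0170). The G7 call was lost when G7 replicate 2 was left out (0.22, edgeR adjusted p = 0.0505), and likewise NS replicate 1 (0.22, 0.0585) or NS replicate 3 (0.21, 0.0600).

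Over the 9 tested members, 7 were called higher, 0 lower and 2 not called for G1 against NS, where 59.1% of all tested genes were called (30.4% higher, 28.7% lower). The G1 libraries lay wholly above NS for 7 members and wholly below for 1, E2F5, where the groups did not overlap for 64.1% of all genes (32.5% above, 31.6% below). For G7 against NS, 4 were higher, 0 lower and 5 not called, beside 22.7% of all genes (13.1% higher, 9.64% lower). The G7 libraries lay wholly above NS for 8 members and below for 0, beside 35.3% of all genes (19.3% above, 15.9% below). The 2 comparisons share the NS libraries. The median log2 change of the members was 0.44 with G1 and 0.23 with G7, beside -0.01 and 0.01 over all tested genes.

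**Figure D2:**
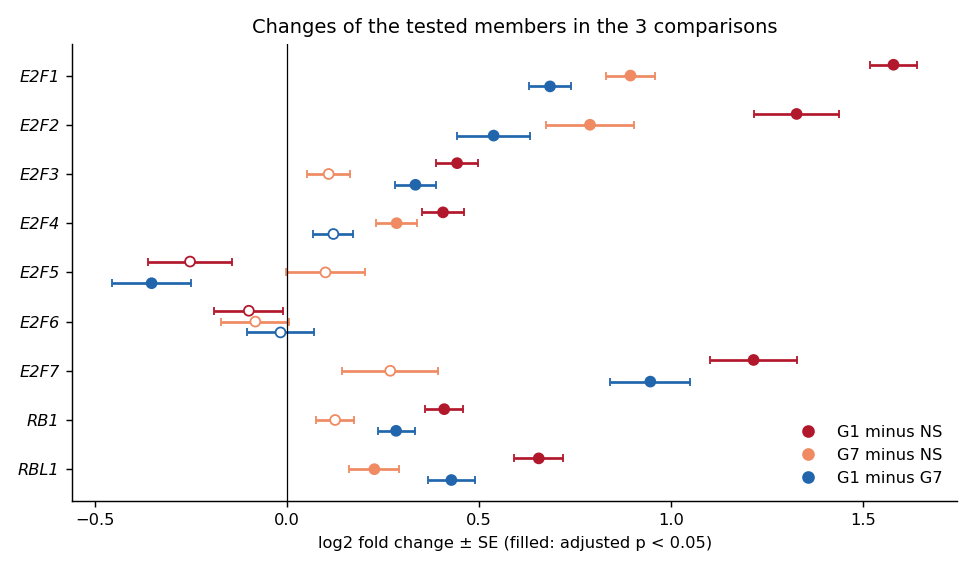
Log2 fold change (x axis) of the 9 tested members for G1 minus NS, G7 minus NS and G1 minus G7, with bars of 1 SE and filled points for members called. For G1 minus NS, E2F1, E2F2 and E2F7 lie furthest to the right, and E2F5 and E2F6 lie left of 0. For G7 minus NS, E2F5 lies right of 0 at 0.10.

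The 2 hairpins were also set against each other directly, in a contrast that does not use NS. Of the 9 members, 6 were higher with G1 than with G7, 1 was lower and 2 were not called, beside 44.9% of all tested genes (23.3% higher, 21.6% lower). The same 6 lay wholly above G7 and E2F5 wholly below, beside 53.6% of all genes (27% above, 26.6% below). E2F7 had the largest difference, 0.95 ± 0.104 on the log2 scale (edgeR adjusted p = 8.06e-07). E2F1 differed by 0.69 ± 0.055 (adjusted p = 1.60e-08) and E2F2 by 0.54 ± 0.096 (adjusted p = 1.64e-04) in the same edgeR test. The log2 difference was 0.43 ± 0.061 for RBL1, 0.33 ± 0.053 for E2F3 and 0.28 ± 0.048 for RB1 (edgeR adjusted p = 1.63e-05, 5.19e-05 and 1.02e-04). E2F5 was the member that was lower with G1, by a log2 difference of -0.35 ± 0.102 (edgeR adjusted p = 0.00889), though not with DESeq2 (-0.34, adjusted p = 0.0698). For E2F6 the difference was -0.02 ± 0.088 (edgeR adjusted p = 0.894). For CBX5 itself the difference G1 minus G7 was -0.52 on the log2 scale, and whether that difference bears on the members was not tested.

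On a scale of CPM per kilobase of exon (RPKM), the order of the members differed between groups. In G1 cells E2F1 came first at 25.1 ± 1.02 RPKM, followed by E2F4 at 20.4 ± 0.758, RB1 at 12.8 ± 0.341, E2F3 at 9.02 ± 0.193, RBL1 at 8.28 ± 0.565 and E2F6 at 8.20 ± 0.237 (SD, n = 3 each). E2F2 (3.23 ± 0.229), E2F7 (1.83 ± 0.145) and E2F5 (1.07 ± 0.0806) closed the order. RBL1 and E2F6 overlapped there, and the other neighbours did not.

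In G7 cells E2F4 led at 18.7 ± 1.07 RPKM, ahead of E2F1 at 15.6 ± 0.148, RB1 at 10.5 ± 0.306, E2F6 at 8.35 ± 1.36, E2F3 at 7.17 ± 0.287 and RBL1 at 6.15 ± 0.267. The lowest were E2F2 (2.23 ± 0.271), E2F5 (1.36 ± 0.0448) and E2F7 (0.950 ± 0.0315). Only E2F6 and E2F3 overlapped as neighbours. In NS cells E2F4 led at 15.3 ± 0.486 RPKM, followed by RB1 (9.61 ± 0.424), E2F6 (8.79 ± 0.506) and E2F1 (8.38 ± 0.568), of which RB1 overlapped E2F6 and E2F6 overlapped E2F1. Below them and apart from them came E2F3 at 6.64 ± 0.0518, RBL1 at 5.25 ± 0.210, the overlapping pair E2F2 (1.28 ± 0.118) and E2F5 (1.27 ± 0.0504), and E2F7 at 0.786 ± 0.0939. E2F5 is understated on this scale if reads in overlapping exons were not counted. With all its counts divided by the length of its other exon bases, E2F5 had 1.88 RPKM with G1, 2.40 with G7 and 2.24 with NS. Those values hold only if no read in the overlapping bases was counted, which is not known.

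Summed over E2F1 to E2F7, the level was 68.8 ± 0.558 RPKM in G1 cells, 54.4 ± 1.17 in G7 cells and 42.5 ± 1.48 in NS cells. E2F1 made up 36.5% ± 1.19 of that sum with G1, 28.7% ± 0.466 with G7 and 19.7% ± 0.649 with NS. The activators E2F1, E2F2 and E2F3 together made up 54.3% ± 1.41, 46.0% ± 0.209 and 38.4% ± 0.300 in the same groups. E2F4 held 29.6% with G1, 34.4% with G7 and 36.1% with NS, and E2F6 held 11.9%, 15.3% and 20.7%. Shares of one sum are not independent of each other, and they were not tested.

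**Figure D3:**
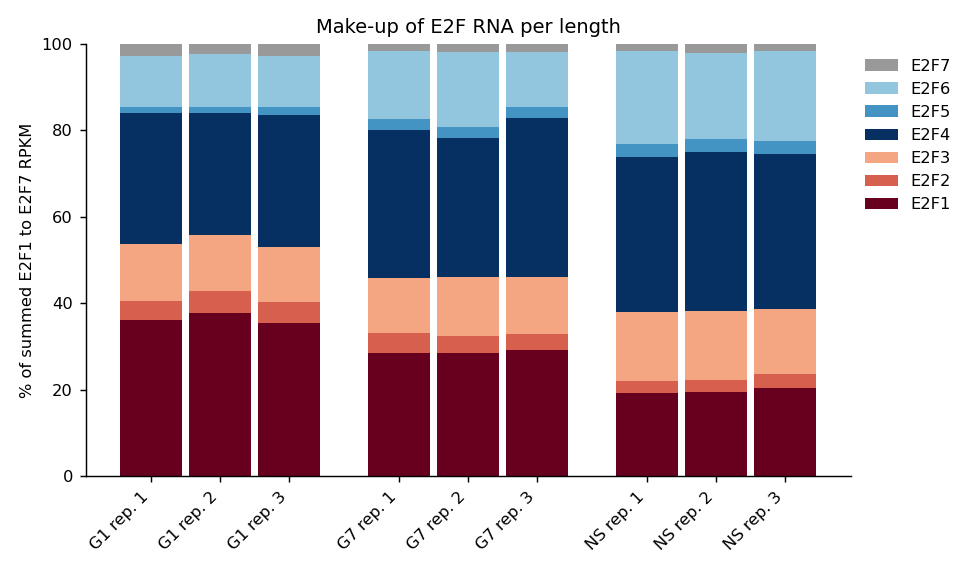
Share (y axis, percent) of each of E2F1 to E2F7 in their summed RPKM, as 1 stacked bar for each library of G1, G7 and NS. The E2F1 part averages 36.5% with G1, 28.7% with G7 and 19.7% with NS.

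The DP partners moved apart from each other. TFDP1, the usual partner of the activators, had 214, 219 and 209 CPM with G1, 155, 155 and 145 CPM with G7 and 124, 122 and 121 CPM with NS. TFDP2 ran the other way, with 93.5, 94.0 and 98.4 CPM with G1, 115, 113 and 118 CPM with G7 and 126, 122 and 123 CPM with NS. No group overlapped another for either gene. TFDP1 rose by a log2 change of 0.81 with G1 and 0.31 with G7 (edgeR adjusted p = 1.38e-11 and 4.14e-05). TFDP2 changed by -0.38 with G1 (edgeR adjusted p = 5.40e-07), and its difference with G7 was -0.10 (adjusted p = 0.0915). TFDP3, a DP gene known mainly from testis, had 2 counts in all and was not tested.

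The third pocket protein gene, RBL2 (p130), which is associated with resting cells, differed in direction from RB1 and RBL1. It had 159, 155 and 154 CPM with G1, 197, 210 and 197 CPM with G7 and 233, 235 and 226 CPM with NS. Every G1 library lay below every G7 library, and these below every NS library. RBL2 fell, with log2 changes of -0.57 with G1 and -0.20 with G7 (edgeR adjusted p = 1.49e-09 and 0.00188). The ratio of RBL1 to RBL2 in RPKM was 0.389 ± 0.0255 in G1 cells, 0.224 ± 0.0103 in G7 cells and 0.166 ± 0.00451 in NS cells, and that of TFDP1 to TFDP2 was 7.15 ± 0.348, 4.19 ± 0.234 and 3.14 ± 0.0269 in the same groups. Both ratios were chosen after these values had been seen.

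**Figure D4:**
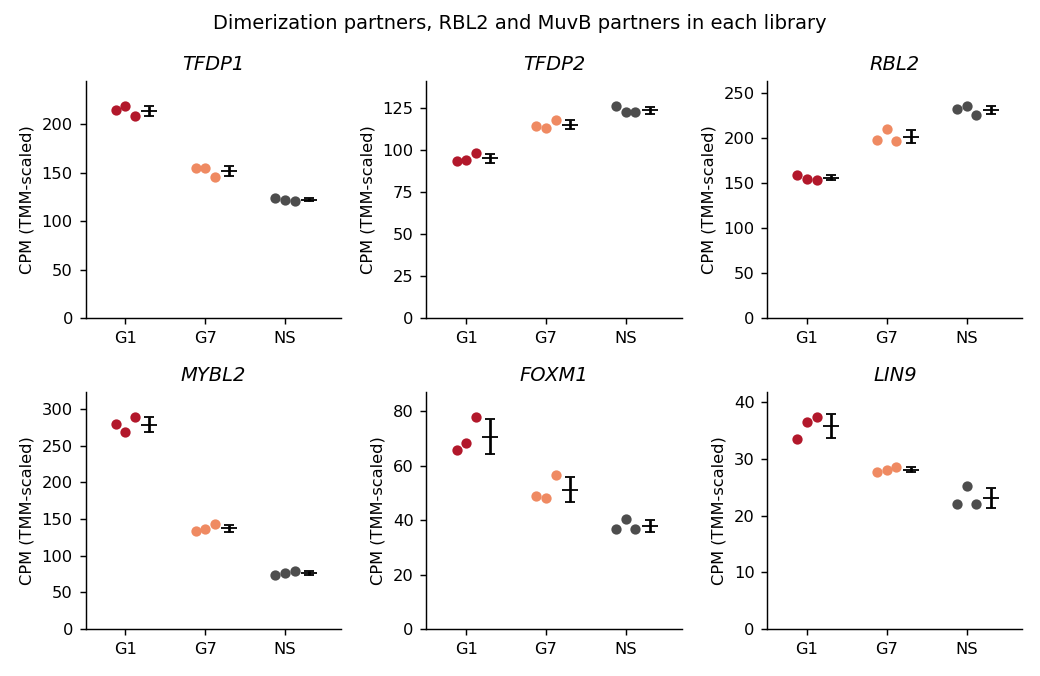
Level in CPM (y axes, linear, from 0) of TFDP1, TFDP2, RBL2, MYBL2, FOXM1 and LIN9 in every library of G1, G7 and NS (points; crossbars are the mean and SD of 3 libraries). TFDP1 and MYBL2 are highest with G1, and TFDP2 and RBL2 are highest with NS.

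MuvB is the core of the DREAM complex, which represses cell cycle genes with E2F4 and RBL1 or RBL2 in resting cells and activates them with MYBL2 or FOXM1 in cycling cells. Of 7 tested genes of 8, 6 were called higher and 0 lower with G1, and 5 higher and 0 lower with G7, with median log2 changes of 0.63 and 0.28. This count and those of the lists that follow stand beside 59.1% of all tested genes called with G1 and 22.7% with G7. Some genes, such as CCNE1, CCNE2, DNMT1, HDAC1, HDAC2 and RBBP4, belong to several of these lists, so the counts are not separate from each other. MYBL2 had 280, 268 and 289 CPM with G1, 134, 137 and 143 CPM with G7 and 74.1, 76.3 and 79.4 CPM with NS, a log2 change of 1.86 with G1 and 0.85 with G7 (edgeR adjusted p = 8.70e-16 and 1.48e-09). MYBL1 rose by 1.24 and 0.61, FOXM1 by 0.90 and 0.44 and LIN9 by 0.63 and 0.28 with G1 and G7. LIN54 rose by 0.39 with G1, and its difference with G7 was 0.17 (edgeR adjusted p = 0.129). RBBP4 rose by 0.33 and 0.15, though 61.8% of its exon bases lie within spans of other genes. For FOXM1 that share was 45.3%. LIN52 had log2 differences of 0.01 with G1 and 0.13 with G7 and passed the test in neither.

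Upstream of RB1, cyclin D and cyclin E kinases phosphorylate the pocket proteins and CDK inhibitors oppose them. Of 11 tested genes of 15, 8 were higher and 2 lower with G1, and 6 higher and 1 lower with G7 (median log2 changes 0.53 and 0.39). Without G7 replicate 1 or NS replicate 3, 3 were higher with G7. Cyclin genes rose with both hairpins, CCND3 by 1.22 with G1 and 0.60 with G7, CCNE2 by 1.29 and 0.48 and CCNE1 by 1.01 and 0.46. The kinase gene CDK6 fell, with a log2 change of -0.37 with either hairpin and a difference between them of 0.00 (edgeR adjusted p = 0.975). The called inhibitor genes went both ways. CDKN2C (p18) rose by 0.59 and 0.60 on the log2 scale with G1 and G7, CDKN2D (p19) by 0.90 and 0.54, and CDKN1A (p21) by 0.53 with G1. CDKN1B (p27), the most abundant of them at 116 ± 2.35 CPM with G1 and 132 ± 2.19 CPM with NS (SD, n = 3 each), fell with G1, with a log2 change of -0.19 (edgeR adjusted p = 5.51e-04), and its difference with G7 was 0.00.

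Genes of proteins that degrade E2Fs or their regulators, all 8 tested, were all called higher with G1, and 6 of them with G7 (median log2 changes 0.59 and 0.21). The APC/C activator CDC20 rose by 1.23 with G1 and 0.39 with G7, and the SCF scaffold CUL1 by 0.67 and 0.19. SKP1, the SCF adaptor, rose by 0.58 and 0.15, and UBE2C, the E2 enzyme of APC/C, by 0.60 and 0.37. RB corepressor genes gave 8 higher and 3 lower of 12 tested with G1, and 6 higher and 1 lower with G7, or 0 lower without G7 replicate 1, NS replicate 1 or NS replicate 2. The maintenance methyltransferase DNMT1 rose by 0.82 and 0.40, RBBP8 by 0.74 and 0.32, RBBP7 by 0.52 and 0.24 and the remodeller ATPase SMARCA4 by 0.40 and 0.24 with G1 and G7. The genes called lower with G1 were ARID4A (-0.30), SIN3B (-0.30) and ARID4B (-0.17), all of SIN3 complexes, and ARID4B was also lower with G7 (-0.17).

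E2F6 acts in a variant Polycomb complex. Of its 11 partner genes, 4 were called higher, 2 lower and 5 not called with G1, and 2 higher, 1 lower and 8 not called with G7, with median log2 changes of 0.15 and -0.03. The shares called were near those of all tested genes, 59.1% with G1 and 22.7% with G7, and are not a result about these partners. Leaving out G1 replicate 1 or 2, G7 replicate 1 or 2 or NS replicate 1 or 3 left 1 lower with G1. For G7, 0 were lower without G7 replicate 1 or 2 or NS replicate 1 or 2, 2 were lower without G1 replicate 1, G7 replicate 3 or NS replicate 3, and 1 was higher without G1 replicate 1, G7 replicate 1 or 2 or NS replicate 2. Upper quartile scaling gave 1 higher and 3 lower with G7. WDR5 rose by 0.62 with G1 and 0.26 with G7, HDAC1 by 0.30 and 0.15, and YAF2 by 0.49 and HDAC2 by 0.24 with G1. RING1, a ubiquitin ligase of the complex, and MAX, which binds DNA with MGA, were called lower with G1 (-0.24 and -0.16), and MGA with G7 (-0.14). Of 12 germ line genes that E2F6 is known, mainly from mouse, to repress, only STAG3 had enough counts to be tested, and 3 were at 0 throughout. STAG3 fell, with a log2 change of -0.70 with G1 (edgeR adjusted p = 0.00754), at 1.83 ± 0.420 CPM with G1 and 2.95 ± 0.393 CPM with NS (SD, n = 3 each). With G7 it had 2.78 ± 0.426 CPM and a difference from NS of -0.06 (edgeR adjusted p = 0.854). The G1 call of STAG3 ended without G1 replicate 2, and 57.4% of its exon bases lie within spans of other genes.

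Among 36 known E2F target genes of S phase entry, 36 were called higher with G1 (median log2 change 1.16) and 35 with G7 (median 0.51), and none lower. This list was drawn up with earlier results of these data known, and its rise is no independent evidence. MYBL2, which is also in it, headed it in G1, followed by RRM2, the small subunit of ribonucleotide reductase, with 1.58 and 0.56, MCM4 of the replicative helicase with 1.52 and 0.59 and the sliding clamp gene PCNA with 1.42 and 0.69 (log2 changes with G1 and G7, ordered by p). Of the exon bases of RRM2, 85.4% lie within spans of other genes. The single-stranded DNA binding gene RPA2 was the gene not called with G7 (0.23, edgeR adjusted p = 0.0693). CDT1, a licensing factor, rose by 0.19 with G1 and 0.20 with G7, and with a difference of -0.02 it was the gene not called between the hairpins, where the other 35 were higher with G1.

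**Figure D5:**
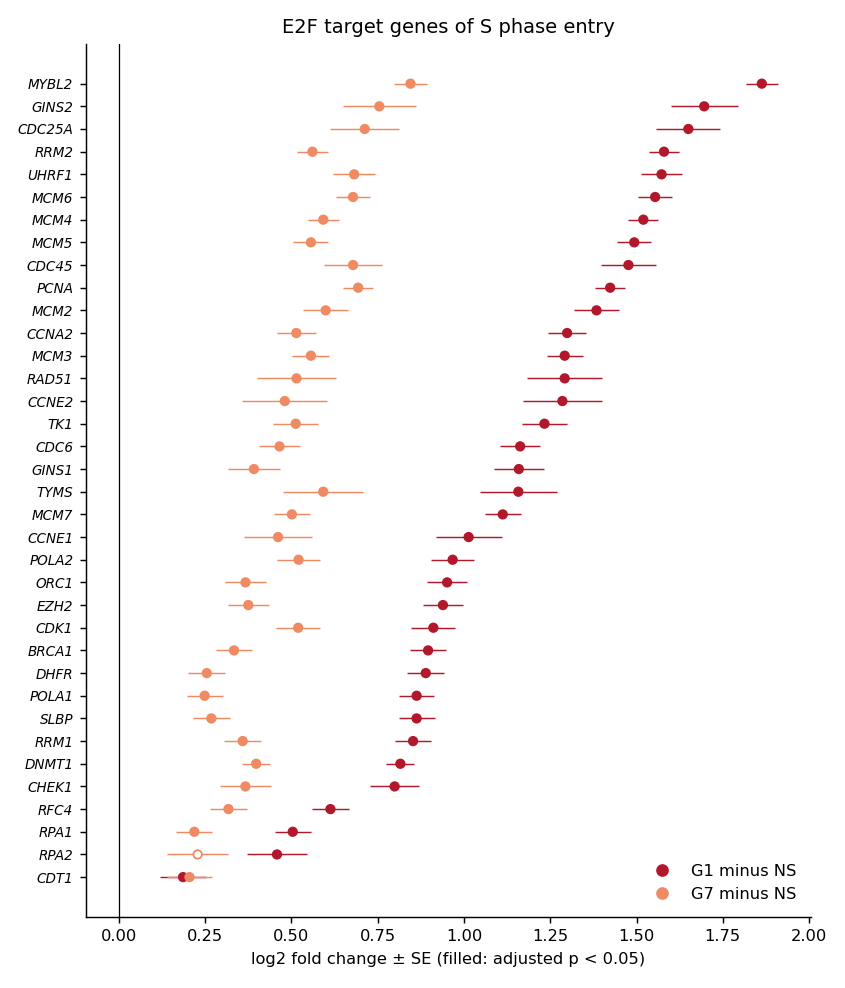
Log2 fold change with its SE (x axis) of the 36 E2F target genes of S phase entry for G1 minus NS and G7 minus NS, with filled points for genes called. Every gene lies right of 0, and the G1 point lies right of the G7 point for all but CDT1.

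E2F1 is also known to activate genes of apoptosis. Of 12 tested genes of 13, 4 were called higher, 2 lower and 6 not called with G1 (median log2 change -0.01), and 1 higher, 2 lower and 9 not called with G7 (median 0.03). Here too the shares called were near the 59.1% and 22.7% of all tested genes and say little about the list. The list also holds BIRC5 and MCL1, whose proteins oppose apoptosis, so its counts of higher and lower genes have no single reading. Under upper quartile scaling 5 were lower with G1, and without G1 replicate 1 or NS replicate 3 it was 1. With G7 there were 0 lower without G7 replicate 1 or 2, and 1 without G1 replicate 2 or any 1 of the NS libraries. BIRC5, which encodes the apoptosis inhibitor survivin and is itself a cell cycle gene, rose by 1.25 with G1 and 0.48 with G7. HRK, a BH3-only gene, fell, with a log2 change of -0.96 with G1 (edgeR adjusted p = 1.93e-07) and a difference of -0.25 with G7 (adjusted p = 0.0550). BBC3, another BH3-only gene, was the other gene called lower with G1 (-0.45).

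Genes most like each member were ranked by the root mean square difference of centred log2 CPM over the 9 libraries, among 9812 other genes with a mean of at least 5 CPM. Nearest to E2F1 were PCNA (0.0994), UHRF1 (0.113) and MCM10 (0.113). E2F2 had ASF1B (0.108), ANKRD22 (0.110) and CCND3 (0.112), and E2F7 had CHAF1B (0.0919), ELOVL6 (0.0953) and KIF20A (0.111). The members with small changes had nearer neighbours, such as ACTR3 for RB1 (0.0216), FBXO21 for E2F3 (0.0243), KIF3C for E2F4 (0.0346), PSMB2 for RBL1 (0.0398), ONECUT2 for E2F5 (0.0417) and AC020916.1 for E2F6 (0.0633). Between members the closest pair was E2F3 and RB1 (0.0460), with E2F1 and E2F2 at 0.136. Likeness follows the size of a gene's change and its noise, and was not tested.

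The promoter letters can be set beside the changes across the genome. Among 9652 tested genes with a RefSeq window, 624 held one of the 4 E2F spellings. Of these, 42.3% were called higher and 22.1% lower with G1 (median log2 change 0.09), against 32.8% and 28.1% of the 9028 genes without a match (median 0.02). With G7, 22.1% of genes with a match were higher and 8.49% lower, against 13.9% and 9.73% of those without. Of the members, E2F1, E2F2, E2F3 and RBL1 held a match, and all 4 rose with G1, as did E2F4 and E2F7, which held none. E2F6 also held none and was not called with G1 (-0.10). With G7, E2F1, E2F2, RBL1 and E2F4 were called higher, and E2F3, E2F7 and E2F6 were not called. E2F5 and E2F8 had no window. The RefSeq window of RB1 lies at a start inside the gene and is not read here.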

How the data were processed

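RNA of 9 HCC827 libraries was compared. Per the labels' protocols, oligo-dT selected RNA was made into strand-specific (dUTP) libraries. The authors deposited a table of unnormalized read counts for Ensembl genes. TopHat2 2.1.0 and HTSeq 0.6.0 on hg38 were used, per the submitters' processing notes; the annotation and the strand setting were not given in the sources used here. Symbols, spans and exon lengths came from GENCODE 29; 3620 rows without a match held 0.025% of counts.

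Counts were fitted with edgeR 4.0.16 in R 4.3.3 (filterByExpr, TMM, quasi-likelihood, all 9 libraries, a mean per group, common dispersion 0.00217), tested in 3 two-sided contrasts with a call threshold of 0.05 on Benjamini-Hochberg adjusted p. DESeq2 1.42.0 was an alternative. SE is the log2 change divided by the square root of F. RPKM uses exon-union length. The procedure was run on simulated counts in which only a small set of genes changed, as many up as down. That run does not check the scaling of data with as many called genes as here.

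Members and gene lists were chosen with earlier results of these data known. Members, DP, RBL2 and MuvB genes were named in full, plus up to 4 genes per other list with the smallest p for G1 against NS and the 3 nearest genes per member; CDKN1A, CDKN1B, CDKN2C, CDKN2D, ARID4A, ARID4B, SIN3B, RING1, MAX, MGA, BBC3, CDT1 and RPA2 are named outside that rule, after their values were seen. Some genes the rule names are not reported here.

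Replicate numbers pair G1 with G7 libraries by their deviations from group means (correlations 0.126, 0.420 and 0.568 over 8600 genes), but not G1 with NS (-0.098, -0.256 and -0.122) or G7 with NS (0.167, -0.177 and -0.115); the labels do not say what a number shares. Against NS, shifted numbers correlated instead. G1 libraries 1, 2 and 3 went with NS libraries 3, 1 and 2 at 0.199, 0.324 and 0.356. G7 libraries 1, 2 and 3 went with the same NS libraries at 0.303, 0.364 and 0.453. The remaining unequal numbers gave negative correlations with NS. Protein sequences were not used here.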

Additional observations from a re-analysis of the deposited data

Results flagged for a closer look

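For 7 members the effect of the 2 hairpins differed, by the test of G1 against G7 itself (edgeR's quasi-likelihood test, Benjamini-Hochberg adjusted p under 0.05). The log2 difference, G1 minus G7, was 0.95 for E2F7, 0.69 for E2F1, 0.54 for E2F2, 0.43 for RBL1, 0.33 for E2F3, 0.28 for RB1 and -0.35 for E2F5. That test called 44.9% of all tested genes. In each case the 3 libraries of G1 and the 3 of G7 did not overlap. This is no separate support, because the same libraries gave the calls. Over all tested genes, called or not, 53.6% did not overlap. The 3 libraries per group are too few for a test of single outlying libraries.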

How the results depend on the processing

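Results were recomputed with other scalings (RLE, upper quartile), DESeq2, no filter, only the 2 groups compared, a replicate block, no mitochondrially encoded genes, thinned libraries and each library left out. Of the log2 changes of members under these settings, 451 kept their direction and side of the threshold, 8 passed it newly, 4 no longer passed and 5 changed sign. The sign changes were all of E2F6, which was never called: with a library left out it ran from -0.176 to 0.0457 for G7 against NS (positive without G7 replicate 3) and from -0.142 to 0.0801 for G1 against G7 (positive without G1 replicate 1, G7 replicate 1 or G7 replicate 2), and without a filter it was 0.0116 for G1 against G7. Members called lower numbered 1 in place of 0 for G1 against NS with upper quartile scaling and without mitochondrial genes (E2F5: -0.34, adjusted p = 0.0114, and -0.26, adjusted p = 0.0454, by edgeR), and 0 to 1 with a library left out. For G1 against G7 they numbered 0 with DESeq2. With a library left out, 7 to 8 members were called for G1 against NS, 3 to 4 for G7 against NS and 7 to 8 for G1 against G7, and over all genes 7095 to 8260, 2260 to 3321 and 5068 to 6036. The causes were not tested. With the replicate block, 7, 4 and 8 members and 7909, 3117 and 6069 genes were called in the 3 comparisons, and with the block in a fit of G1 and G7 alone 7012 genes. Apart from E2F4 between G1 and G7 the block changed no call of a member. Against NS it is no check on pairing, because NS libraries did not pair with G1 or G7 libraries of the same number. Upper quartile scaling gave 3066 higher and 4815 lower genes for G1 against NS, where TMM gave 4031 and 3806, and 1398 and 1603 for G7, where TMM gave 1735 and 1279. Between G1 and G7 it gave 2346 and 3751, where TMM gave 3092 and 2870. TFDP2 was called with G7 there (-0.13, adjusted p = 0.0320 by edgeR). With all counts divided by the exon length outside other genes, E2F1 made up 28.2% of the E2F sum in G7 cells. Among members, depth limits E2F2, E2F5 and E2F7, whose SE reached 0.1 or more on the log2 scale against NS. Overlapping genes limit the members E2F5 and E2F8. Such overlap also bears on other genes named here, such as RRM2, STAG3, CCNE2 (50.2% of exon bases), FOXM1, SKP1 (39.9%) and RBBP4.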
